A study of Mus musculus with 18 samples.

Results

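The genes described here are 10 genes of iron and heme handling, Slc40a1, Tfrc, Slc11a1, Slc11a2, Slc48a1, Hmox1, Fth1, Ftl1, Ireb2 and Hamp, read by their symbols from a count table of 21734 protein-coding genes. All 10 were in the table, and 9 passed the filter on low counts and were among the 11357 genes tested. Hamp did not pass it. RNA was sequenced from bone marrow-derived macrophages (BMDMs), cells that grow out of mouse marrow in the growth factor M-CSF, in 18 libraries. The 3 genotypes were wild-type (WT), a knockout of miR-146a (KO) and an allele, called 3F here, in which the 3′ part of the miR-146a duplex was swapped between its strands while the seed was kept. Every genotype was harvested resting, 16 h after a change to LPS-free medium, or 16 h after a change to medium with 1 ng/ml LPS, the bacterial lipopolysaccharide that activates Toll-like receptor 4. Each of these 6 groups held 3 libraries. All mice were of a mixed 129/B6 background and 6 to 7 months old, 3 of each genotype, and the marrow was grown for 8 to 9 days with 10 ng/ml M-CSF. Both alleles are germline changes, so every cell of the animal carried them, and the cultures were exposed to M-CSF in all groups. The study asked whether a miR-146a whose 3′ pairing is disrupted does what the WT microRNA does.

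Macrophages take in iron bound to transferrin and in the heme of engulfed red cells. Heme is moved out of the phagosome, opened by heme oxygenase to free its iron, and the iron is either stored in ferritin or sent out of the cell through ferroportin. Iron regulatory proteins bind hairpins in the messenger RNAs of these genes, called iron-responsive elements, when iron is scarce: at the 5′ end of a message they block translation, and at the 3′ end they protect the message from decay. During infection, macrophages are known to hold iron back from the blood and from microbes in their vacuoles.

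The sequences that tie several of these genes together are the iron-responsive elements. For genes that carry one at the 5′ end, a change in message level and a change in translation are separate layers. An element at the 3′ end acts on the message level itself. A search of annotated untranslated regions (GENCODE M21, GRCm38) for C, 5 bases, CAGTGN and 5 bases, with the flanking runs of 5 bases paired to each other and G-T pairs allowed, found 7 elements in 4 of the 10 genes. Each is printed 5′ to 3′ on the strand of the gene with up to 5 bases on each side, and the capitals mark the 6-base loop.
Slc40a1, 5′ UTR, chr1:45925471-45925487: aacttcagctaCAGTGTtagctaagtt
Fth1, 5′ UTR, chr19:9982738-9982754: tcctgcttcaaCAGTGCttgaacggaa
Ftl1, 5′ UTR, chr7:45459785-45459801: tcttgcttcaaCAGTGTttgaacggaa
Tfrc, 3′ UTR, chr16:32631225-32631241: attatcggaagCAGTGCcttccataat
Tfrc, 3′ UTR, chr16:32631604-32631620: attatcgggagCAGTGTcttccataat
Tfrc, 3′ UTR, chr16:32631669-32631685: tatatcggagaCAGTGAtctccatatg
Tfrc, 3′ UTR, chr16:32631716-32631732: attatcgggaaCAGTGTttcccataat
The coordinates span the 17 bases of the element itself. Slc40a1 and Ftl1 lie on the minus strand, Fth1 and Tfrc on the plus strand. Of 21578 protein-coding genes searched, 0.732% held such a match in either untranslated region, 0.144% in the 5′ UTR and 0.589% in the 3′ UTR. The other 6 genes held none in this form, which says only that this pattern is not in their annotated untranslated regions. The elements of the ferritin chains and of ferroportin were upstream of the coding part, and all 4 of Tfrc were downstream of it. Not every annotated protein-coding transcript held them. They were in 1 of 4 transcripts of Slc40a1, 4 of 5 of Fth1, 1 of 2 of Ftl1 and 1 of 3 of Tfrc.

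**Figure D1:**
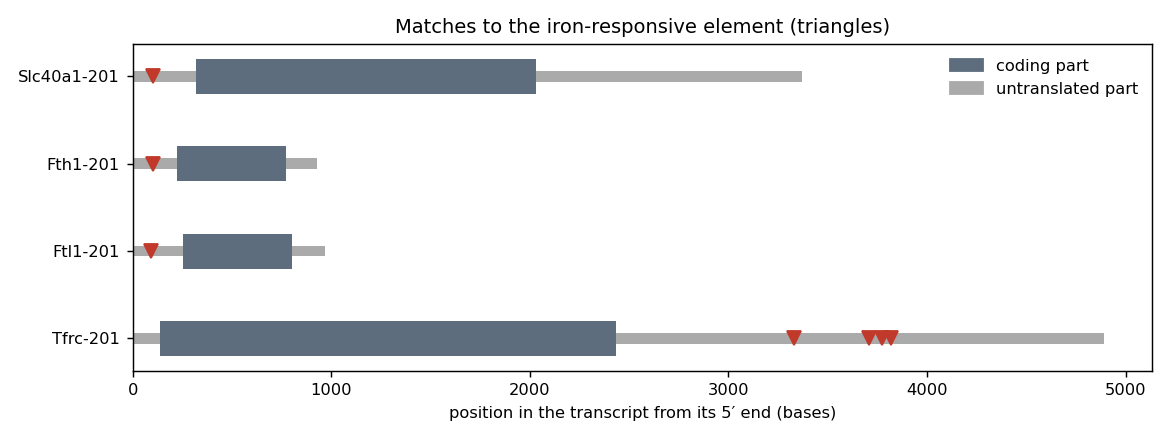
Transcripts of the 4 genes with a match to the iron-responsive element, drawn to scale in bases from the 5′ end, with the coding part as a thick box, the untranslated parts as thin bars and each match as a triangle. The drawn transcripts of Slc40a1, Fth1 and Ftl1 carry 1 match each before the coding part, and that of Tfrc carries 4 behind it.

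The microRNA that the genotypes alter is shown for its seed, which the 3F allele keeps. It is mmu-miR-146a-5p, at chr11:43374435-43374456 on the minus strand (RefSeq, GRCm38.p6), with nucleotides 2 to 8 in capitals.
mmu-miR-146a-5p: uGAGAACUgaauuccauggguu
A search of the longest annotated 3′ UTR of each gene found no 8-base or 7-base match to this seed in any of the 10 genes. Slc40a1, Ireb2 and Slc48a1 each held 1 match of 6 bases, shown in capitals within 24 bases of sequence.
Slc40a1: ttactgagttgtGTTCTCccaatt
Ireb2: aacaaagtgaagGTTCTCttaatc
Slc48a1: catccaggaggcGTTCTCccaagg
Of the 20786 genes with a 3′ UTR, 18.2% held a 7-base or 8-base match and 29.7% a match of 6 bases or more. A match is a description of the letters and not a measured site.

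Total counts ran from 4071084 to 19818043 per library, and the replicate pairs of each group differed by more than counting noise. A pair of resting libraries stood apart from their groups. Resting KO replicate 3 lay at −19.7 on the first principal component, where the other resting KO libraries lay at 28.2 and 31.4, and its summed level of 11 interferon response genes was 12601 CPM (the usual counts per 1000000, here of the TMM-scaled library size) against 700 and 534 in the other resting KO libraries and 143 to 301 in resting WT. Resting 3F replicate 3 lay at −50.3 on the second component and had the lowest total. Macrophage markers summed to between 32642 and 88626 CPM in every library, and the 11 erythroid markers to at most 2.11 CPM with Gata1 and Rhag at 0 in all libraries. The summed macrophage markers were higher in resting KO (61256 to 62689 CPM) than in resting WT (32642 to 48859 CPM). Of the 10 markers, 3 were called higher and 1 lower at rest, and 0 higher and 1 lower with LPS. The sum of 15 proliferation genes was lower in resting KO (803 to 901 CPM against 1494 to 1816 CPM), with 10 called lower. Of the 11 interferon response genes, 10 were called higher in KO against WT at rest. The sums of all 3 lists differed between KO and WT at rest, and their part in the KO results below was not tested. In bulk RNA, fewer cells of a type and less RNA per cell cannot be told apart. The labels name no batch. The p-values of the main fit below rest on the spread between libraries within groups, estimated jointly over the 6 groups. A library that stands apart can thus also affect the errors of comparisons that do not hold it. The libraries came from cultures of 3 animals a genotype.

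By GENCODE M21 (GRCm38), the plus-strand genes are Slc11a1 (chr1:74375195-74386062), Hmox1 (chr8:75093621-75100589), Fth1 (chr19:9980598-9985098), Tfrc (chr16:32608920-32632794), Ireb2 (chr9:54863789-54912530) and Slc48a1 (chr15:97778520-97792692). The minus-strand genes are Slc40a1 (chr1:45908068-45926523), Slc11a2 (chr15:100387898-100425072), Ftl1 (chr7:45457944-45459884) and Hamp (chr7:30942368-30944032).

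Message levels per length of exon spanned several orders of magnitude. In resting WT BMDMs, Fth1, the ferritin heavy chain that oxidises iron for storage, had 5810 ± 913 CPM per kb (SD, n = 3) and Ftl1, the ferritin light chain, had 4324 ± 873, and the ranges of this pair overlapped. Hmox1, heme oxygenase 1, followed with 187 ± 3.29 CPM per kb. Slc48a1, the carrier HRG1 that moves heme out of the phagolysosome, had 99.3 ± 6.6, and Slc11a1, the phagosomal metal carrier Nramp1, had 88.4 ± 7.56, with overlapping ranges. Tfrc, the transferrin receptor, had 53.8 ± 8.4. Slc11a2, the endosomal iron carrier DMT1, had 10.8 ± 1.45, Ireb2, the iron regulatory protein IRP2, had 9.5 ± 2.21 and Slc40a1, ferroportin, had 6.67 ± 1.74 CPM per kb. The ranges of Slc11a2 and Ireb2 overlapped, as did those of Ireb2 and Slc40a1. The ferritin values are uncertain, because both chains have near-identical copies elsewhere in the genome and the authors counted only reads with a mapping quality of at least 50.

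Hamp, which encodes the hormone hepcidin that removes ferroportin from the cell surface, was near the limit of detection. It had 2 counts in resting WT replicate 1, 1 count in resting 3F replicate 2 and 0 counts in the other 16 libraries. A count of 0 allows a level of up to 3 counts, or 0.164 to 0.702 CPM depending on the depth of the library, and no difference in Hamp could be seen at this depth. Limits and intervals of this kind cover counting error only.

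**Figure D2:**
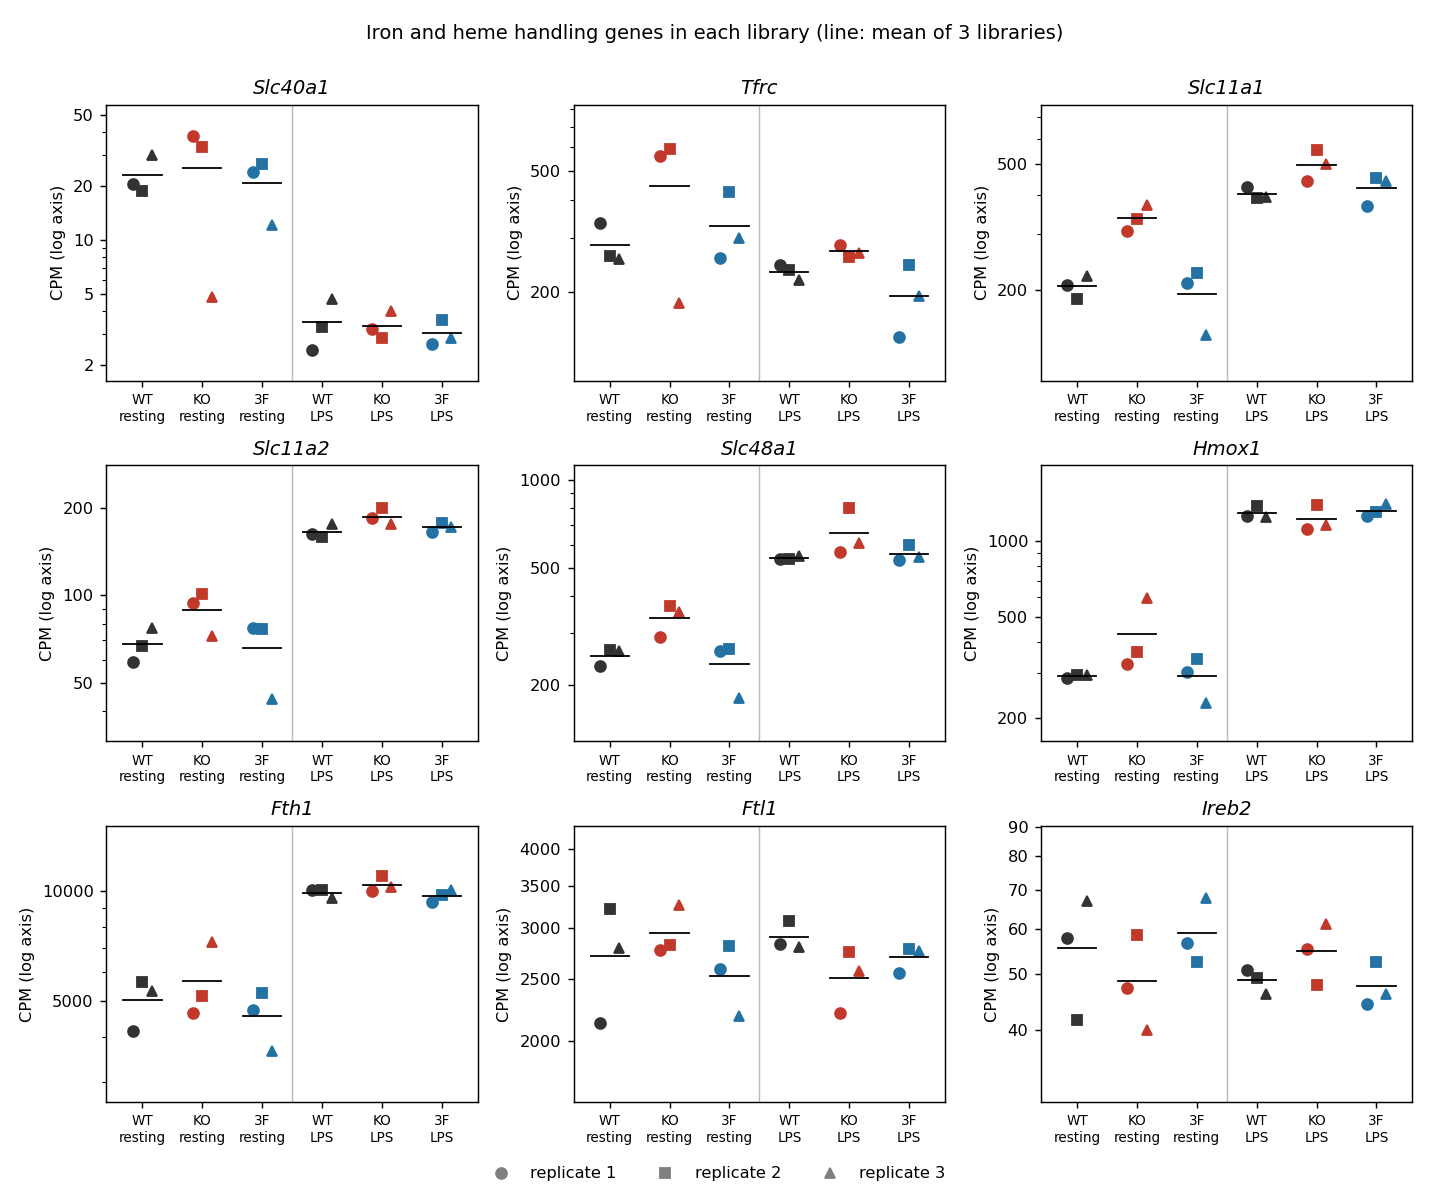
CPM of the 9 tested genes in every library on log axes, by group, with replicates 1 to 3 as circles, squares and triangles and the mean of 3 libraries as a line. Slc40a1 lies between 2.44 and 4.69 CPM in every LPS library and at 12.2 CPM or above in every resting library but KO replicate 3, at 4.83 CPM.

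LPS lowered the message of the iron exporter and raised those of the metal and heme carriers, of heme oxygenase and of the ferritin heavy chain, in all 3 genotypes. In WT, 6 of the 9 genes tested passed (edgeR quasi-likelihood test, Benjamini-Hochberg over all genes tested), 5 higher and 1 lower. The same 6 genes passed in KO and in 3F, again 5 higher and 1 lower. Among all genes tested, 28.5% were called in WT (16.3% higher, 12.3% lower), 26.9% in KO (14.3% higher, 12.6% lower) and 31.2% in 3F (17.2% higher, 14.0% lower). The median log2 difference of the 9 genes was 0.97 in WT, 0.56 in KO and 1.1 in 3F, beside 0.02, 0.02 and −0.01 over all genes tested. Leaving out any 1 of the WT or 3F libraries kept all 6 calls of that genotype, and in KO only the call of Slc11a1 was lost, as given below. Macrophage markers rose in part with LPS as well, with 6 of 10 called higher in WT, and proliferation genes fell, with 10 of 15 called lower. Of 6 stromal markers, the 2 tested were called higher in every genotype, at summed levels of 0.394 to 3.38 CPM in resting WT and 2.65 to 4.4 CPM in WT with LPS. Neutrophil markers went from 15.7 to 22.4 CPM to 32.1 to 41.1 CPM in WT, with 1 of 5 tested called higher. All 11 interferon response genes were called higher in WT and 10 in 3F. In KO, resting replicate 3 was at the level of the LPS libraries. Their part in the LPS results was not tested.

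The iron exporter Slc40a1 had the largest fall of the 9 genes in WT. Resting WT replicates had 20.6, 18.7 and 30 CPM and WT replicates with LPS had 2.44, 3.28 and 4.69 CPM. The groups did not overlap, and every LPS library was below every resting WT library. The log2 difference was −2.73 ± 0.52 (SE), a 6.64-fold lower level with an adjusted p of 0.00105 in edgeR. In 3F, resting replicates had 24, 26.5 and 12.2 CPM and those with LPS had 2.64, 3.56 and 2.82 CPM. That was a log2 difference of −2.82 ± 0.54, with an edgeR adjusted p of 0.000956. In KO, resting replicates had 38.1, 33.1 and 4.83 CPM and those with LPS had 3.17, 2.82 and 3.99 CPM. The third resting KO library was thus far below its group and just above the highest LPS library. The log2 difference in KO was −2.94 ± 0.52 with all libraries (edgeR adjusted p = 0.000553) and −3.42 ± 0.3 without that library. In counts, Slc40a1 had 249 to 314 reads in resting WT and 35 to 64 reads in WT with LPS, so its fall was well above the floor of 3 counts.

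The heme-degrading enzyme Hmox1 had the largest rise of the 9 genes in WT. Resting WT replicates had 288, 296 and 297 CPM, and WT replicates with LPS had 1258, 1375 and 1253 CPM. The resting WT libraries lay close together, far below the LPS libraries. The log2 difference was 2.14 ± 0.2, or 4.41-fold, with an edgeR adjusted p of 1.15e-06. In 3F, resting replicates had 305, 341 and 230 CPM and LPS replicates had 1257, 1312 and 1404 CPM, a log2 difference of 2.18 ± 0.2 (edgeR adjusted p = 8.82e-07). In KO, resting replicates had 326, 364 and 599 CPM and LPS replicates had 1122, 1388 and 1160 CPM. That was 1.51 ± 0.19 on the log2 scale (edgeR adjusted p = 2.52e-05), and 1.83 ± 0.15 without resting KO replicate 3, the library with 599 CPM. With LPS, the 3 genotypes overlapped.

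The heme carrier Slc48a1 rose by 1.1 ± 0.15 on the log2 scale in WT (edgeR adjusted p = 7.61e-05), from 232, 262 and 261 CPM to 538, 535 and 551 CPM. In KO it went from 290, 371 and 353 CPM to 566, 797 and 609 CPM, and in 3F from 261, 264 and 180 CPM to 533, 600 and 543 CPM. The lowest LPS library of any genotype was above the highest resting one. The log2 differences in KO and 3F were 0.96 ± 0.15 and 1.25 ± 0.15, both called.

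The metal carriers Slc11a1 and Slc11a2 both rose. Slc11a1, which draws divalent metals out of the phagosome, had 207, 187 and 222 CPM in resting WT and 421, 389 and 394 CPM in WT with LPS. The groups did not overlap, and the log2 difference was 0.97 ± 0.15 (edgeR adjusted p = 0.000198). In 3F it went from 211, 227 and 144 CPM to 368, 452 and 440 CPM, a log2 difference of 1.11 ± 0.15. In KO it started higher, at 307, 334 and 371 CPM, and reached 440, 551 and 498 CPM, a log2 difference of 0.56 ± 0.15 (edgeR adjusted p = 0.0108). The KO call was lost without LPS KO replicate 2 (0.43, adjusted p = 0.0984) and without resting KO replicate 1 (0.5, adjusted p = 0.0555).

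Slc11a2, which carries iron out of the endosome after transferrin uptake, went from 59.1, 67.1 and 77.2 CPM to 162, 159 and 175 CPM in WT. The log2 difference was 1.29 ± 0.17 (edgeR adjusted p = 5.34e-05), and the groups were far apart. In KO it went from 93.8, 101 and 72.6 CPM to 184, 199 and 175 CPM and in 3F from 77.4, 76.5 and 44.2 CPM to 165, 177 and 171 CPM. These were log2 differences of 1.06 ± 0.17 and 1.36 ± 0.17, both called.

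Tfrc, which brings transferrin-bound iron into the cell, was not called in any genotype by edgeR with all libraries. WT had 337, 263 and 256 CPM at rest and 244, 236 and 218 CPM with LPS, a log2 difference of −0.3 ± 0.31. These WT groups did not overlap, but by a narrow margin. In 3F, 259, 427 and 300 CPM stood against 142, 245 and 194 CPM, a log2 difference of −0.76 ± 0.32 with an edgeR adjusted p of 0.0771, which DESeq2 placed at 0.0476. With all libraries, limma-voom with quality weights called Tfrc in KO (−0.99, adjusted p = 0.000787) and in 3F (−0.98, adjusted p = 0.00078). Without resting 3F replicate 3 the 3F difference was −0.86 ± 0.36 (edgeR adjusted p = 0.0875). Without resting KO replicate 3 as well it was −0.86 ± 0.2 and called (edgeR adjusted p = 0.00313). In KO, the resting replicates were 562, 591 and 184 CPM and those with LPS 286, 260 and 269 CPM. The third resting KO library was below all 3 LPS libraries, while the other resting ones were about 2 times as high as the LPS libraries. The log2 difference in KO was −0.71 ± 0.31 (edgeR adjusted p = 0.107), and without resting KO replicate 3 it was −1.09 ± 0.21 and called, with an edgeR adjusted p of 0.000642.

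Ireb2, one of the proteins that bind the iron-responsive elements, ranged from 40.1 to 67.7 CPM over all 18 libraries, and resting and LPS groups overlapped in each genotype. Its LPS log2 differences were −0.18 ± 0.17 in WT, 0.17 ± 0.17 in KO and −0.29 ± 0.17 in 3F, none called.

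**Figure D3:**
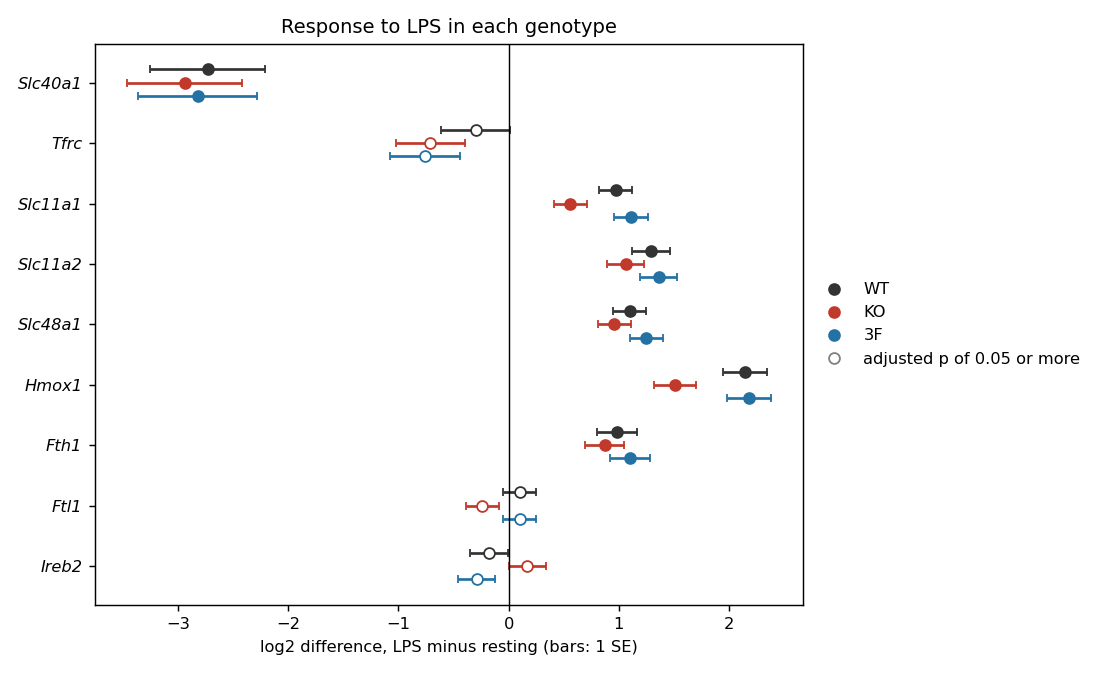
Log2 difference of LPS minus resting for the 9 tested genes in WT (black), KO (red) and 3F (blue), with bars of 1 SE and open points where the adjusted p was 0.05 or more. Slc40a1 lies between −2.94 and −2.73 in the 3 genotypes and Hmox1 between 1.51 and 2.18, while Ftl1, Tfrc and Ireb2 have open points only.

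Of the ferritin chains, Fth1 rose with LPS in every genotype and Ftl1 was called in none. Fth1 went in WT from 4136, 5633 and 5325 CPM to 10055, 10075 and 9600 CPM, with no overlap. The log2 difference was 0.98 ± 0.18 in WT (edgeR adjusted p = 0.000627), 0.87 ± 0.18 in KO and 1.1 ± 0.18 in 3F, each called. Ftl1 had 2131, 3218 and 2799 CPM in resting WT and 2840, 3086 and 2810 CPM in WT with LPS, which overlapped. Its log2 differences were 0.1 ± 0.15 in WT, −0.24 ± 0.15 in KO and 0.1 ± 0.15 in 3F, none called.

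The ratio of Fth1 to Ftl1 counts within a library depends on neither depth nor scaling. The ratio was looked at after the values of both genes had been seen. It was 1.94, 1.75 and 1.90 in resting WT replicates and 3.54, 3.26 and 3.42 in WT replicates with LPS. In 3F it went from 1.83, 1.88 and 1.67 to 3.65, 3.51 and 3.65, and in KO from 1.67, 1.84 and 2.22 to 4.53, 3.98 and 3.99. No LPS library overlapped a resting one. On the log2 scale the ratio with LPS was above that at rest by 0.87 ± 0.06 (SE, n = 3 a group) in WT, 1.13 ± 0.13 in KO and 1.01 ± 0.06 in 3F. Each has an exact two-sided permutation p of 0.1, the smallest that 3 libraries against 3 allow, and 0.18 after adjustment over 9 comparisons. With LPS, the 3 KO libraries had ratios above all WT and 3F ones, by 0.29 ± 0.07 on the log2 scale against WT and 0.21 ± 0.06 against 3F, each with the same exact permutation p of 0.1. At rest the genotypes overlapped.

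**Figure D4:**
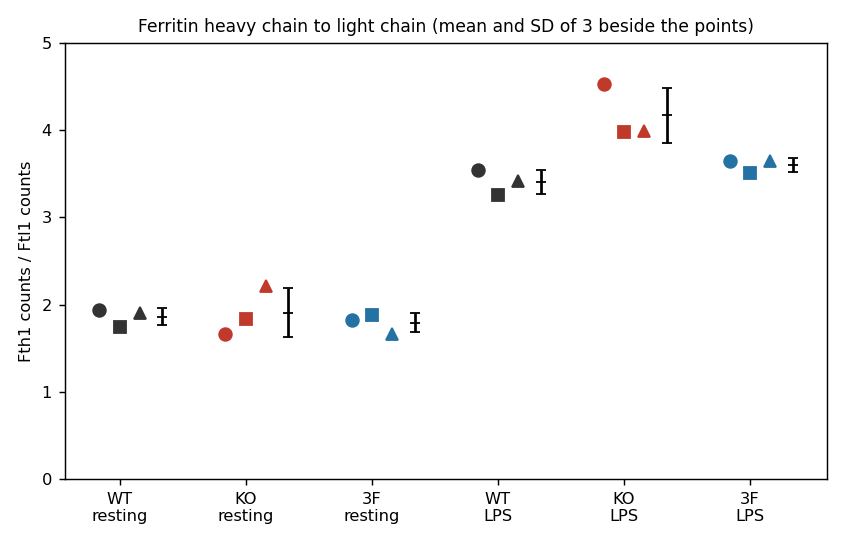
Ratio of Fth1 counts to Ftl1 counts in each library, by group, with replicates 1 to 3 as circles, squares and triangles and the mean with its SD over 3 libraries beside them. Resting libraries lie between 1.67 and 2.22, LPS-treated WT and 3F cultures fall from 3.26 to 3.65, and those of KO from 3.98 to 4.53.

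At rest, loss of miR-146a went with a higher message of the phagosomal carrier Slc11a1, and with values for several other genes that depended on 1 library. Of the 9 genes tested in KO against WT, 1 was called, Slc11a1, which was higher. Among all genes tested 9.40% were called, 5.12% higher. Every resting KO library (307, 334 and 371 CPM) was above every resting WT library (187 to 222 CPM), and the log2 difference was 0.72 ± 0.15, or 1.64-fold (edgeR adjusted p = 0.0082). It was 0.64 ± 0.16 without resting KO replicate 3 and still called, and lost its call without resting WT replicate 2 (0.65, edgeR adjusted p = 0.0514). Hmox1 and Slc48a1 also had resting KO libraries that were all above the WT ones, with log2 differences of 0.55 ± 0.19 (adjusted p = 0.0808) and 0.42 ± 0.15 (adjusted p = 0.0973). Neither passed in edgeR, and DESeq2 called Hmox1 at an adjusted p of 0.0343. Hmox1 was also called without resting KO replicate 1 (0.71, edgeR adjusted p = 0.0297).

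Resting KO replicate 3 set the values of 3 genes in this comparison. Tfrc had 562 and 591 CPM in resting KO replicates 1 and 2 and 184 CPM in replicate 3, against 256 to 337 CPM in WT. With all libraries its log2 difference was 0.64 ± 0.31 (edgeR adjusted p = 0.231), and without that library 1.02 ± 0.21, or 2.02-fold, with an edgeR adjusted p of 0.00871. Slc40a1 had 38.1 and 33.1 CPM in the first and second replicate, above the WT range of 18.7 to 30 CPM, and 4.83 CPM in the third, below it. Its log2 difference was 0.16 ± 0.46 with all libraries and 0.63 ± 0.27 without that library (edgeR adjusted p = 0.18). Hmox1 went the other way, at 599 CPM in that library, and its difference was 0.23 ± 0.14 without it. In these 3 genes the library lay on the side of the LPS libraries of its own genotype. It did so too in Slc11a1 and in Fth1, at 7250 CPM against 4647 and 5180 CPM in the other resting KO libraries. It lay on the opposite side in Slc11a2, at 72.6 CPM against 93.8 and 101 CPM. The same held for Ireb2 and for Ftl1, at 3268 CPM against 2775 and 2822 CPM. In Slc48a1 it lay between the other resting KO libraries. The interferon response genes of this library summed to 12601 CPM, within the 10669 to 14712 CPM of the LPS KO libraries, and its neutrophil markers to 52.7 CPM against 14.7 and 27.1 CPM. The part of these in the 3 genes was not tested.

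Without both resting libraries that stand apart, a setting chosen after the data were seen, 5 of the 9 genes were called in KO against WT at rest, where 14.6% of all genes tested were called. All 5 were higher in KO: Tfrc by 1.04 ± 0.2, Slc11a1 by 0.67 ± 0.11, Slc40a1 by 0.65 ± 0.2, Slc11a2 by 0.55 ± 0.1 and Slc48a1 by 0.41 ± 0.13 on the log2 scale. The edgeR adjusted p of Slc40a1 was 0.0438 and that of Slc48a1 0.0428. Without resting KO replicate 3 alone the count was 2, Tfrc and Slc11a1, beside 7.03% of all genes tested. Both ferritin chains and Ireb2 had log2 differences between −0.07 and 0.07 in these settings, none called. The 5 genes thus include the receptor and carrier of the transferrin route as well as the exporter.

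**Figure D5:**
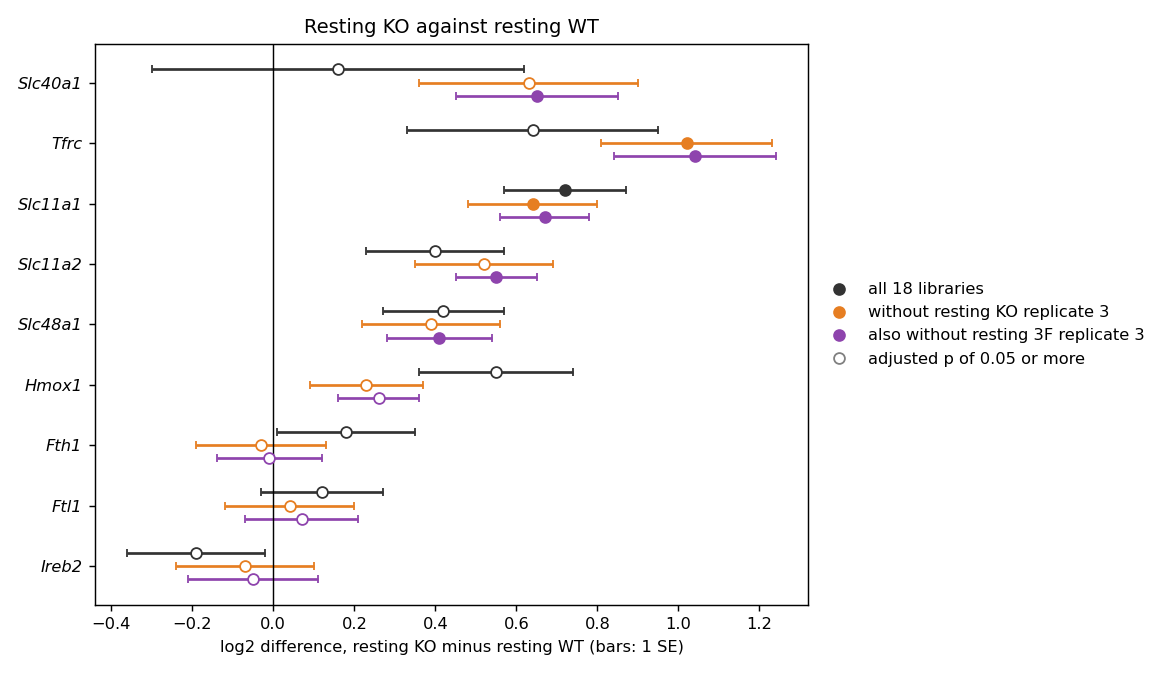
Log2 difference of resting KO minus resting WT for the 9 tested genes with all 18 libraries (black), without resting KO replicate 3 (orange) and also without resting 3F replicate 3 (purple), with bars of 1 SE and open points where the adjusted p was 0.05 or more. Slc11a1 is filled in all 3 settings, and Slc40a1 moves from 0.16 to 0.63 and Tfrc from 0.64 to 1.02 when the resting KO library is left out.

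The 3F allele gave no called difference from WT in these genes. Of the 9 tested, 0 were called at rest and 0 with LPS in edgeR, and 0 had an unadjusted p under 0.05 in either state. Among all genes tested, 0% were called at rest and 0.00881% with LPS. DESeq2 and the other alternatives also called 0 of the 9. The resting log2 differences of 3F against WT ran from −0.14 to 0.21. For Slc11a1, which was higher in resting KO, the 3F difference at rest was −0.08, with −0.38 to 0.22 as its value ± 2 SE. For Hmox1 it was −0.01, with −0.38 to 0.37. For Slc40a1 the range with all libraries was wide, from −1.03 to 0.83, so a difference of 1.5-fold in either direction was not detectable in that fit. Its difference was 0.13 ± 0.5 without resting 3F replicate 3, and 0.13 ± 0.21 without resting KO replicate 3 as well, not called. Resting 3F replicate 3, the shallowest library, was the lowest of its group for Slc40a1, Slc11a1, Slc11a2, Slc48a1, Hmox1, Fth1 and Ftl1 and the highest for Ireb2. Its neutrophil markers summed to 68.1 CPM, against 13.7 and 27.3 CPM in the other resting 3F libraries. The part of depth and of these markers in its values was not tested.

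KO was also set directly against 3F. At rest 2 of the 9 genes were called, both higher in KO, where 12.9% of all genes tested were called and 6.79% were higher. Slc11a1 differed by 0.8 ± 0.15 on the log2 scale (edgeR adjusted p = 0.00602), with KO at 307 to 371 CPM and 3F at 144 to 227 CPM. Slc48a1 differed by 0.52 ± 0.15 (edgeR adjusted p = 0.0367), with KO at 290 to 371 CPM and 3F at 180 to 264 CPM. Neither pair of groups overlapped. The Slc48a1 call was lost without resting 3F replicate 3 (0.37, adjusted p = 0.111), without resting KO replicate 3 (0.49, adjusted p = 0.0772) and without resting KO replicate 2 (0.45, adjusted p = 0.0992). Both calls were lost when the fit held these 2 groups alone (adjusted p = 0.154 for Slc11a1 and 0.266 for Slc48a1). Hmox1 differed by 0.55 ± 0.19 (edgeR adjusted p = 0.0622). It was called by DESeq2 (adjusted p = 0.0263) and by edgeR without resting KO replicate 1 (0.72), resting KO replicate 2 (0.66) or resting 3F replicate 2 (0.68), and differed by 0.24 without resting KO replicate 3. Tfrc differed by 0.44, or by 0.81 ± 0.21 without resting KO replicate 3 (edgeR adjusted p = 0.0284). This comparison shares its KO libraries with that of KO against WT.

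With LPS, the 9 genes did not pass in any pair of genotypes. In KO against WT, 0 of 9 were called in edgeR, with 0 at an unadjusted p under 0.05, beside 4.79% of all genes tested. In KO against 3F, 0 of 9 were called, likewise with 0 at an unadjusted p under 0.05, beside 3.88%. Slc11a1 had the largest KO to WT difference, 0.31 ± 0.15, with KO at 440 to 551 CPM and WT at 389 to 421 CPM (edgeR adjusted p = 0.295). Hmox1 differed by −0.08 ± 0.19, with −0.46 to 0.29 as its value ± 2 SE, and Slc40a1 by −0.06 ± 0.56. Ftl1 in KO, at 2207 to 2756 CPM, was below WT at 2810 to 3086 CPM in every library, with a log2 difference of −0.21 ± 0.15 that was not called.

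Whether the LPS response itself differed between genotypes was tested by the interaction of genotype and LPS. For KO, 0 of the 9 genes were called, where 0.00881% of all genes tested were, and for 3F 0 of the 9, where 0% were. DESeq2 and the other alternatives likewise called 0. At an unadjusted p under 0.05 there was 1 gene for KO, Hmox1, whose rise was smaller than in WT, with a KO minus WT difference of −0.63 ± 0.27 on the log2 scale (edgeR adjusted p = 0.918). Without resting KO replicate 3 it was −0.32 ± 0.19. For Slc40a1 the KO interaction was −0.21, with −1.66 to 1.24 as its value ± 2 SE, and for 3F −0.08, with −1.55 to 1.39.

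Other genes of the pathway were counted in 3 lists. A list of 26 other iron genes had 20 members tested, of which 8 were called with LPS in WT, 6 higher and 2 lower, with a median log2 difference of 0.02, as over all genes. In KO 10 were called and in 3F 9. The share called among all genes tested was 28.5% in WT, 26.9% in KO and 31.2% in 3F, and this holds beside the counts of all 3 lists. Lcn2, lipocalin 2, which binds bacterial siderophores, rose from 0.263 to 0.483 CPM in resting WT to 29.0 to 44.6 CPM, a log2 difference of 6.64 ± 0.68 from a level near the floor. Cp, ceruloplasmin, a ferroxidase that works with ferroportin, rose from 0.657 to 1.26 CPM to 43.7 to 109 CPM (6.32 ± 0.47). Fbxl5, which marks IRP2 for degradation when iron is high, rose by 1.07 ± 0.15, and Smad7, an inhibitor of the BMP signal, fell by 1.16 on the log2 scale. The Fbxl5 libraries held 68.4 to 93.8 CPM at rest and 159 to 170 CPM with LPS.

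A list of 24 heme genes had 22 tested, and 7 were called with LPS in WT, 4 higher and 3 lower, with a median of −0.01, where 28.5% of all genes tested were called. KO had 9 calls and 3F had 8. Hp, haptoglobin, which binds free hemoglobin, rose from 3.61 to 11.6 CPM to 479 to 815 CPM (6.38 ± 0.78). Alas1, the first enzyme of heme synthesis, rose by 1.69 ± 0.18, from 66.9 to 100 CPM to 261 to 306 CPM. Blvrb, a biliverdin reductase, rose by 1.1 ± 0.15. Cd163, the receptor for hemoglobin bound to haptoglobin, rose by 1.01 ± 0.27, with 1.93 to 5.32 CPM at rest and 5.28 to 9.00 CPM with LPS, which overlapped. Its call was lost without LPS WT replicate 1 (0.79, edgeR adjusted p = 0.0595) and in a fit of the WT groups alone.

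A list of 17 genes around the transcription factors NRF2 and BACH1, which control Hmox1 and the ferritin genes, had all 17 tested, and 11 rose and 0 fell with LPS in WT, with a median of 0.72. Slc7a11, the cystine carrier, rose by 2.77 ± 0.35, Prdx1, a peroxiredoxin, by 1.38 ± 0.29, Gclm, a subunit of the enzyme that starts glutathione synthesis, by 1.35 ± 0.17 and Txnrd1, a thioredoxin reductase, by 1.16 ± 0.19. In 3F 10 rose and 0 fell. In KO 5 rose and 2 fell, and that total of 7 was 3 without LPS KO replicate 1, 2 without LPS KO replicate 2 or LPS KO replicate 3, and 3 without resting KO replicate 1. Whether the list responded differently between genotypes was tested gene by gene, and 0 of the 17 interactions were called for KO or for 3F. Among all genes tested, 0.00881% were called for the KO interaction and 0% for that of 3F. Counts of 0 thus cannot show that the list responded alike. The median KO interaction of the list was −0.32, beside −0.02 over all genes tested, and that of 3F −0.11, beside −0.01.

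In resting KO against WT, 2 genes of each list were called, of 20, 22 and 17 tested, a share near the 9.40% called among all genes tested. Cp was 6.27-fold higher (2.65 ± 0.5 on the log2 scale, 3.21 to 10.9 CPM against 0.657 to 1.26 CPM), and Slc25a37, the mitochondrial iron importer mitoferrin 1, was higher by 0.85 ± 0.15, with 48.4 to 55.8 CPM against 22.9 to 32.2 CPM. Both calls stood without resting KO replicate 3, Cp at 1.98, and limma-voom did not call Cp (1.84, adjusted p = 0.061). Hp was higher by 2.89 ± 0.69 on the log2 scale, but by 1.17 without that library and then not called (adjusted p = 0.0953). Abcg2, a heme exporter, was lower, with a log2 difference of −0.49 ± 0.15, but its edgeR adjusted p of 0.0458 did not hold. The call was lost with RLE size factors (adjusted p = 0.0512), with no filter, with the compared groups alone, without both libraries that stand apart and without any 1 of the 6 libraries but resting KO replicate 1. The heme list had 0 calls without resting KO replicate 3 or resting WT replicate 2, and 1 without resting WT replicate 1 or resting WT replicate 3. Nqo1, a quinone reductase, was higher by 2.14 ± 0.6, and by 0.45 without resting KO replicate 3, in which it had the 78.3 CPM of a group that began at 8.84 CPM. Bach1, the repressor of Hmox1, was higher by 0.38 ± 0.11 (edgeR adjusted p = 0.0487), with 227 to 237 CPM against 178 to 181 CPM. That call was lost without any 1 of the 6 libraries (adjusted p = 0.0754 to 0.126), with RLE size factors, with no filter and with the compared groups alone. Nqo1 also lost its call without any 1 of the resting WT libraries (adjusted p = 0.0902 to 0.104) and with limma-voom (0.5, adjusted p = 0.253). The NRF2 and BACH1 list had 0 calls without resting KO replicate 3, resting WT replicate 1 or resting WT replicate 2, and 1 without resting WT replicate 3, which was neither Nqo1 nor Bach1, or without resting KO replicate 2.

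With LPS, Cp was again higher in KO than in WT, at 203 to 263 CPM against 43.7 to 109 CPM (1.66 ± 0.33), a call that was lost without LPS WT replicate 2 (1.39, adjusted p = 0.0543). In the heme list, Cd163 was higher by 0.97 ± 0.25, with 13.0 to 15.1 CPM against 5.28 to 9.00 CPM, and Flvcr1, a heme exporter of the plasma membrane, was lower, with a log2 difference of −0.59 ± 0.15 and 68.9 to 83.9 CPM against 104 to 120 CPM. The heme count of 2 became 0 or 1 without any 1 of the 6 libraries compared, namely 0 without LPS WT replicate 2, LPS KO replicate 1 or LPS KO replicate 2, and 1 without LPS WT replicate 1, LPS WT replicate 3 or LPS KO replicate 3. In the NRF2 and BACH1 list 0 of 17 were called by edgeR, and 1 without LPS WT replicate 1. The share called among all genes tested was 4.79% in KO against WT with LPS. In 3F against WT, 0 genes of the 3 lists were called by edgeR in either state. There the share among all genes tested was 0% at rest and 0.00881% with LPS.

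The genes whose log2 CPM followed that of a tested gene most closely over the 18 libraries were ranked for the 3 genes with the smallest p in the WT response to LPS. All 18 libraries share the split into resting and LPS, and the values of r are a description. Hmox1 was followed most closely by Cyfip1 (Pearson r = 0.991), Ccl5 (0.989) and Antxr1 (0.986) of 8684 genes ranked. Slc11a2 was followed by Slc16a10 (0.989), Ube2f (0.989) and Plekha8 (0.987), and Slc48a1 by Rab10 (0.987), Cers6 (0.987) and Slc13a3 (0.985).

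Promoter windows of 300 bases, 250 before and 50 after the start site, were taken from RefSeq (GRCm38.p6) for 6 of the 10 genes, Slc11a1, Hamp, Ftl1, Ireb2, Tfrc and Fth1. These genes had 8 windows. No window was at hand for Slc40a1, Slc11a2, Hmox1 and Slc48a1, which were not searched. Motifs farther from a start site would not be seen. On both strands, TGACNNNGC, the core of the antioxidant response element, was in 0 of the 6 and in 12.4% of all 32851 promoter windows. CACGTG, the E-box, was in 0 of the 6 and in 7.15% of all windows, and ACGTG, the core of the hypoxia response element that lies within CACGTG, was in Tfrc alone of the 6 and in 19.6% of all windows. Both Tfrc windows overlap and hold the same ACGTG.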

How the data were processed

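Total RNA from 18 BMDM libraries was depleted of ribosomal RNA and sequenced strand-specifically. The deposited table holds raw gene counts, which the authors made by trimming with cutadapt 1.8.3, aligning to mm10 with HISAT2 2.1.0 and counting with featureCounts 1.5.3 by strand over Gencode M15 at a mapping quality of at least 50. Reads that align equally well to near-identical copies can be lost by such a minimum, and the loss was not measured here. Groups followed the labels.

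Counts were filtered with filterByExpr and scaled with TMM, and 11 comparisons were fitted over all 18 libraries by edgeR 4.0.16 (quasi-likelihood, 1 coefficient per group, R 4.3.3). Benjamini-Hochberg adjustment ran over the 11357 genes tested, with calls at an adjusted p under 0.05, and errors are SE. The procedure was tested on simulated data. Depth was 4071084 to 19818043 counts a library.

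Alternatives were RLE size factors, no filter, DESeq2 1.42.0, limma-voom with quality weights (limma 3.58.1), the compared groups alone, a replicate block and leaving out each library. The members, gene lists and tests were chosen with earlier results of these data known. The ferritin ratio, the search for miR-146a sites and the settings without libraries that stand apart were chosen after the values were seen. Outside the 10 genes, the text names up to 4 called genes of each list, those with the largest log2 difference at an average log2 CPM of at least 1, in the WT response to LPS and in KO against WT. It also names the 3 genes most correlated with each of the 3 members of smallest p in that response. Positions are of GENCODE M21, and sequences are of GRCm38.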

Additional observations from a re-analysis of the deposited data

How the results depend on the processing

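For the 10 genes, all but 9 of the 155 counts of calls under an alternative stayed within 1.5 times the value reported. Counts of 0 that stayed 0, as in the comparisons without a called gene, are included as unchanged. All 9 that moved were in KO against WT or KO against 3F at rest. In KO against WT at rest the count of 1 became 2 with DESeq2, 3 with limma-voom, 5 without both libraries that stand apart, and 0 to 2 when 1 library was left out (0 without resting WT replicate 2, 2 without resting KO replicate 1 or resting KO replicate 3). In KO against 3F at rest the count of 2 became 4 with limma-voom, 0 with the compared groups alone and 1 to 3 when 1 library was left out (1 without resting 3F replicate 3, 3 without resting KO replicate 1 or resting 3F replicate 2), and 3 with DESeq2. Slc40a1 in KO against WT at rest ran from −0.25 (without resting KO replicate 1) over −0.07 (without replicate 2) to 0.63 (without replicate 3). For single genes called by at least 1 setting, 596 of 676 log2 differences under an alternative kept direction and call, 54 lost the call, 24 gained it and 2 changed sign. For those of the 10 genes called by no setting, 82 of 992 changed sign. RLE size factors moved the median of all genes by −0.04 to 0.

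In the lists, 149 of 195 counts stayed within 1.5 times, counts of 0 that stayed 0 included. With limma-voom, iron genes gave 13 calls for LPS in WT, 5 for KO against WT at rest and 4 with LPS, heme genes 13 for LPS in 3F and 4 for KO against WT at rest, and NRF2 and BACH1 genes 13 for LPS in KO, 5 for KO against WT at rest and 3 with LPS. DESeq2 gave 2 for KO against WT with LPS in the iron and in the NRF2 and BACH1 list. RLE size factors and no filter each gave 1 for KO against WT at rest in the heme and in the NRF2 and BACH1 list. The compared groups alone gave 3 iron genes for KO against WT with LPS, 0 for both other lists at rest and 3 NRF2 and BACH1 genes for LPS in KO. Without both libraries that stand apart the iron list had 13 calls for LPS in WT and 3 for KO against WT with LPS, the heme list 1 for KO against WT at rest, and the NRF2 and BACH1 list 5 at rest and 3 with LPS. Leaving out 1 library gave 0 to 1 iron genes and 0 to 1 heme genes for KO against WT with LPS, 0 to 2 heme and 0 to 2 NRF2 and BACH1 genes at rest, 0 to 1 of the latter with LPS and 2 to 7 for LPS in KO. The cause was not tested.

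With the replicate block, Tfrc in the LPS response of 3F was called (−0.77, adjusted p = 0.0482 in edgeR), and KO against WT at rest gave 1 heme and 0 NRF2 and BACH1 genes. The labels do not say that a number marks 1 animal, though the column names give resting and LPS libraries of a number the same letter. Resting and LPS libraries of the same genotype and number correlated at 0.03 to 0.32, with 5 of 9 above 0.1. Libraries of the same number in different genotypes correlated at −0.29 to 0.21, with 4 of 18 above 0.1. The main fit did not pair libraries. No other call of the 10 genes changed with the block. The 3 libraries a group and, for Hamp and Slc40a1, low counts limit what could be seen.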
